A study of Mus musculus with 6 samples.

Results

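Ciliary transport and BBSome genes were followed through the cell classes of the mouse retina at 3 and 18 months of age. The genes were chosen by symbol. All symbols that start with Ift, Bbs or Nphp and a digit, or with Dync2, Kif3 or Rpgr, were taken, together with a short list of named genes that holds Alms1, Arl3, Arl6, Cc2d2a, Cep290, Kif17, Lca5, Tulp3 and Unc119. The rule found 44 of the 32285 genes in the files. They comprise 3 subunits of intraflagellar transport complex A (IFT-A), 11 of complex B (IFT-B), 1 antisense transcript (Ift88os), 2 dynein-2 subunits, 4 kinesin-2 motors, 6 BBSome core subunits, 2 chaperonin-like BBS genes, 3 nephrocystins, 5 genes of the transition zone and RPGR complex, 3 small GTPases, a lipid-cargo carrier (Unc119), a Tubby-family protein (Tulp3), and Alms1 and Lca5.

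The light-sensing outer segment of a photoreceptor is a modified primary cilium, and its proteins are made in the inner segment and pass through a narrow connecting cilium that corresponds to the transition zone. Kinesin-2 carries IFT trains toward the tip and dynein-2 brings them back, while the BBSome, a coat-like complex recruited by the GTPase ARL6, sorts membrane proteins on these trains. Lipid-modified proteins follow another route, in which UNC119 binds the lipid and ARL3 releases the cargo inside the cilium. Inherited defects in many of these genes cause retinal degeneration.

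The samples were single-nucleus RNA libraries of retina from wild-type C57BL6/J mice, with 3 libraries at 3 months and 3 at 18 months, and no treatment or altered allele is named for either group. Nothing in the labels states whether libraries came from different animals. For age within a class, p-values measure only the spread between libraries. The fits across classes hold a term for each library. Their p-values measure the spread of class differences left within libraries, and classes of the same library enter as separate values. Either spread may be technical in part. Nuclei were grouped by markers into rod-like, cone-like and other classes, called rods, cones and so on below, and raw UMI (unique molecule) counts were summed per library and class. Levels are given as CPM, the count of a gene scaled to the total of its sum, and log2 differences come from edgeR's quasi-likelihood test with Benjamini-Hochberg adjustment over all genes tested, with 0.05 as the threshold. Clusters were made without the 44 genes.

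The 6 libraries held 15905689 to 29340705 UMIs and 5027 to 14083 nuclei after filtering. Of 50241 nuclei, 36.8% stayed in clusters with no class, among them 9341 of the 12789 nuclei of 18-month replicate 3. Rods numbered 216 to 5226 nuclei per library, with sums of 257577 to 5840867 UMIs, and cones 222 to 550. Between 8 and 53 barcodes were shared by each of the 15 pairs of libraries. The 6 classes that are not photoreceptors were rod bipolar, cone bipolar, amacrine, horizontal and retinal ganglion cells and Müller glia. The part of free RNA in the levels of a class was not tested. Rods poor in Malat1, a nuclear RNA, made up 9.60%, 71.7% and 47.6% of rods at 3 months (replicates 1, 2 and 3) and 0.659%, 5.51% and 0.926% at 18 months, so results in rods are also given without them where they differ.

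Ciliary transport genes took their largest share of UMIs in photoreceptor nuclei. The 44 genes together took 7446 to 8887 CPM of rod sums (median 8116) and 6454 to 7846 CPM of cone sums (median 7344). Unc119 (43917 UMIs over rods, cones and the other classes) and Rpgrip1 (33468) weighed most in the totals, ahead of Arl3 (18534). The 6 other classes ran from 2020 CPM, the lowest retinal ganglion library, to 5323 CPM, the highest cone bipolar library. Every rod and cone library was above every library of the other classes. By mean CPM over the 6 libraries, 21 of the 44 genes were highest in rods and 11 in cones. Cone bipolar cells were highest for 4 genes, rod bipolar cells for 3, horizontal cells for 2, Müller glia for 2 and retinal ganglion cells for 1, and retinal ganglion cells were lowest for 16.

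Of the 44 genes, 41 passed the low-count filter for the comparison of classes, and Bbs10, Ift88os and Kif17 did not. In rods against the mean of the 6 other classes, 29 of the 41 were higher and 4 lower. Over all 11149 genes tested, 72.7% were called, 38.6% higher and 34.2% lower, and the median log2 difference was 0.05, against 0.95 for the 41. In cones, 26 were higher and 4 lower, where 53.6% of all genes were called, 26.5% higher and 27.1% lower, and the median was 0.02, against 0.58 for the 41. Set against each of the 6 classes alone, rods had 26 to 30 of the genes higher and 3 to 5 lower, beside 27.0% to 39.2% of all genes called higher. Cones had 20 to 25 higher and 1 to 5 lower, beside 13.4% to 31.2% of all genes called higher. The plot of the 41 differences in rods and cones shows both photoreceptor types on the same side of 0 for most genes, with Tulp3, Kif3c and Kif3a among those on the low side.

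**Figure D1:**
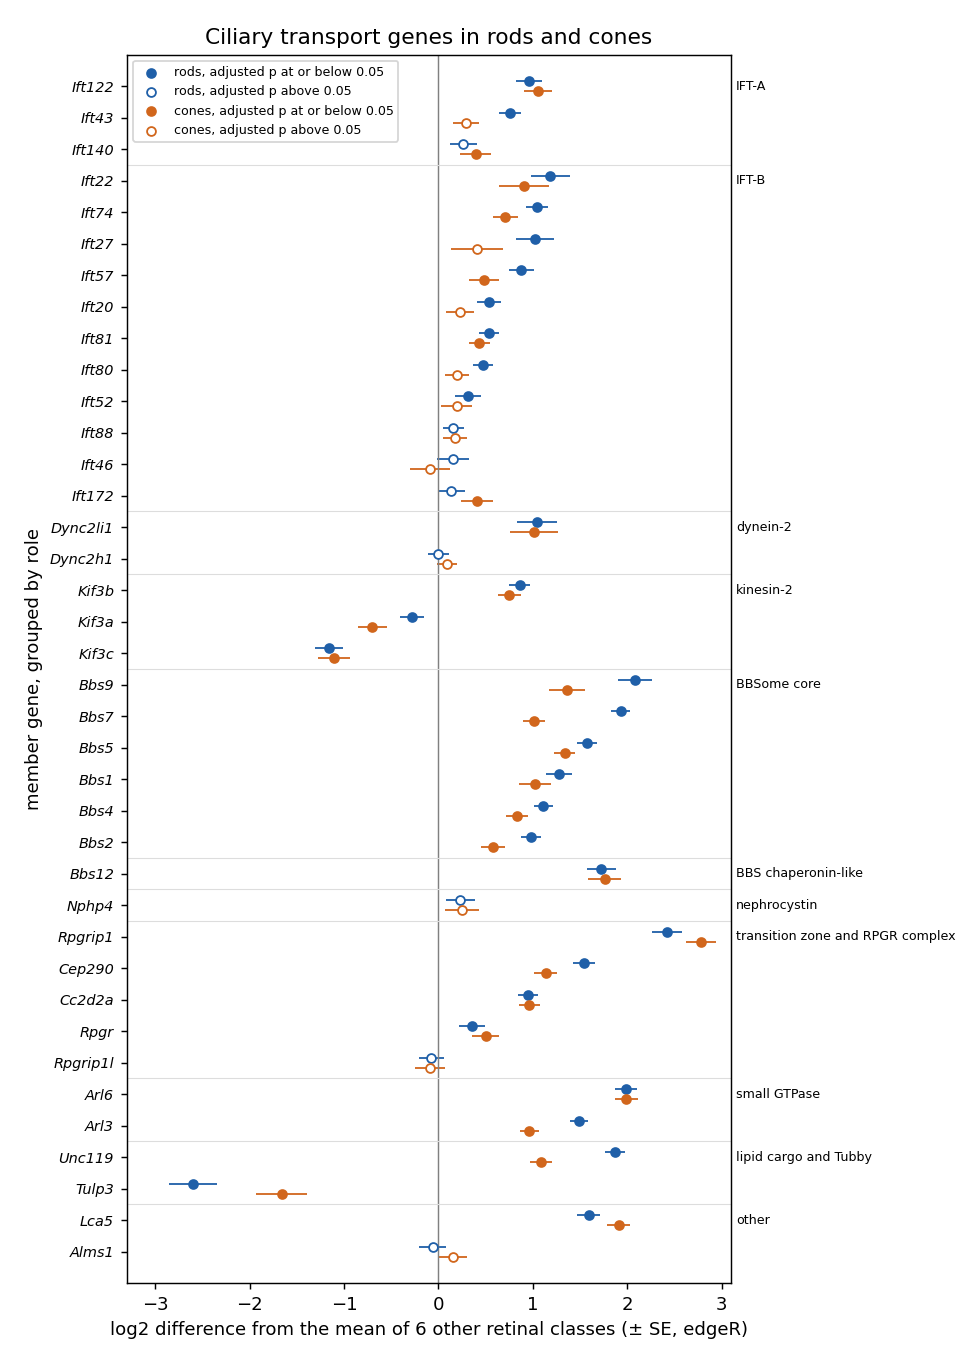
Log2 difference (± SE, edgeR) of rods and of cones from the mean of 6 other retinal classes, for 38 of the 41 genes tested, grouped by role; filled points have an adjusted p at or below 0.05 and open points do not. Rpgrip1 lies farthest to the right in both, at 2.42 in rods and 2.78 in cones, and Tulp3 (-2.60) farthest to the left among the genes drawn for rods.

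All 6 BBSome core subunits were higher in both rods and cones than the mean of the other classes. The median log2 difference was 1.43 in rods and 1.02 in cones. Against single classes, cones lost the calls of Bbs4 (0.22, rod bipolar), Bbs2 (0.35, Müller glia) and Bbs9 (0.69 and 0.63, rod and cone bipolar). Bbs1, Bbs5 and Bbs7 kept theirs in cones, and all core subunits kept theirs in rods. In rods, Bbs9 was 2.08 higher on the log2 scale (SE 0.18, adjusted p = 3.64e-14), Bbs7 1.93 (SE 0.10, adjusted p = 4.96e-21) and Bbs5 1.57 (SE 0.11, adjusted p = 2.17e-17). Bbs1 (1.28), Bbs4 (1.11) and Bbs2 (0.98) were also called. Ttc8, a BBSome subunit that the symbol rule does not take, was 0.92 higher. Bbs7, at mm10 chr3:36573142-36613477 on the minus strand, ran from 194 to 417 CPM in rods (median 309) and from 136 to 214 CPM in cones (median 166). The highest library of any other class had 164 CPM (cone bipolar), so rods lay above all other classes without overlap, while cones overlapped the bipolar classes. Bbs5 ran from 148 to 248 CPM in rods (median 168) and from 112 to 262 CPM in cones (median 146). Rods overlapped 1 other class, since the highest cone bipolar library had 151 CPM. Bbs9, a large gene at chr9:22475715-22888280, ran from 271 to 1184 CPM in rods (median 685) and from 290 to 669 CPM in cones (median 415). Its lowest rod library, 3-month replicate 2, lay within the range of every other class but retinal ganglion cells. The next, 3-month replicate 3, was above every horizontal cell library (at most 288.5 CPM). It lay within the ranges of rod bipolar and cone bipolar cells, which reached 333.7 and 356 CPM.

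**Figure D2:**
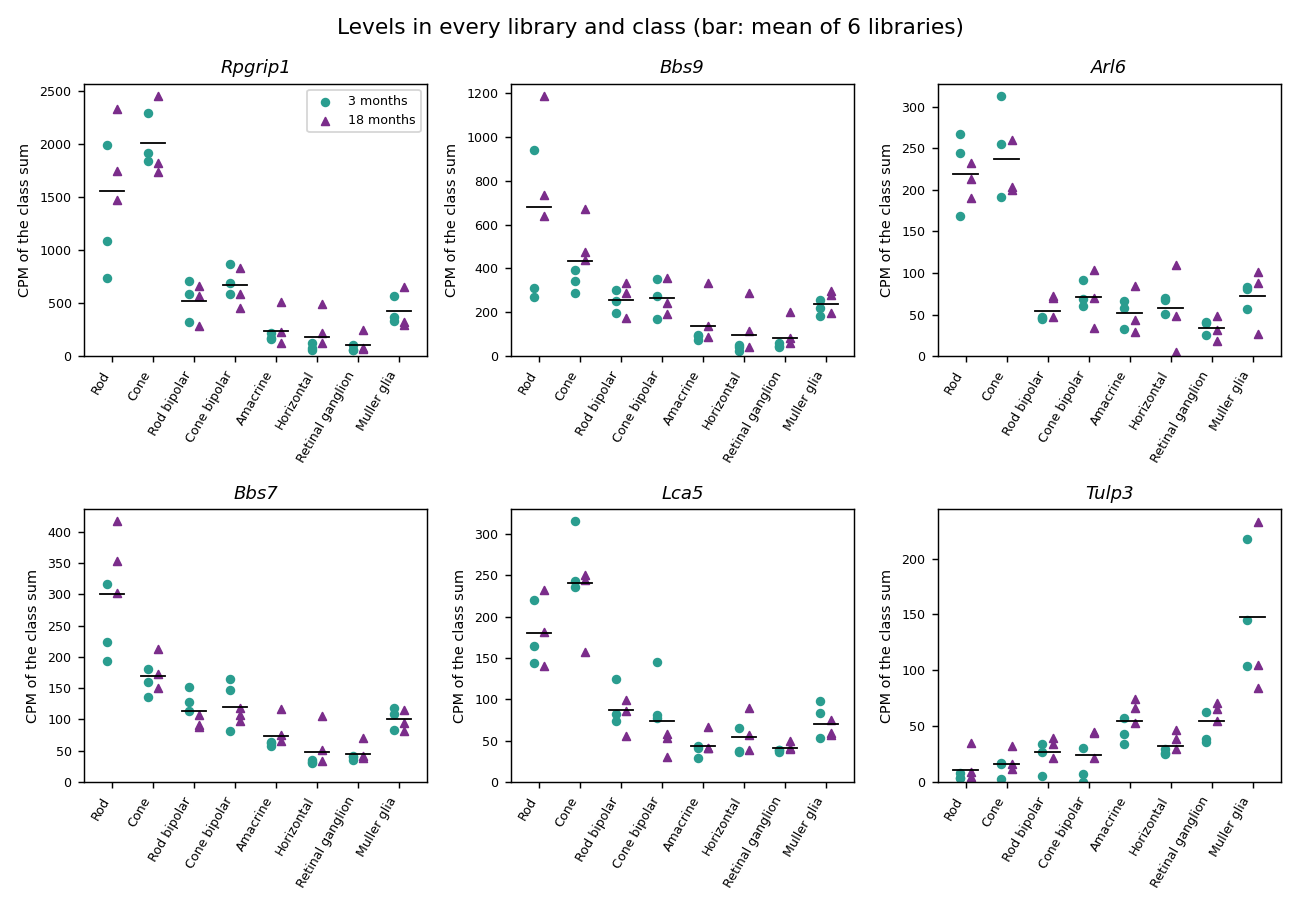
CPM of the class sum for 6 genes in every library (circles 3 months, triangles 18 months) and class, with the mean of 6 libraries as a bar. Arl6 is above all 6 other classes in both photoreceptor types, Bbs7 only in rods and Rpgrip1 and Lca5 only in cones, and Tulp3 is highest in Müller glia, at 83.9 to 232 CPM.

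The promoters of these genes were searched for 2 short motifs, because members of both IFT and BBSome groups were called higher in rods. Whether the groups vary together was not tested. The first is the X-box, the DNA element that RFX transcription factors of ciliated cells bind, searched as GTNNCC and NGNAAC separated by 1 or 2 bases. The second is TAATCC, the core that the photoreceptor factor CRX binds. Both strands were read over the 250 bases before and 50 after each RefSeq start (GRCm38.p6), for the 37 of 44 genes with an entry. An X-box match of either spacing was found for 8 of 37 genes (21.6%) and for 4.22% of all 27025 genes with an entry. It was found for 6 of the 24 genes called higher in rods and for 2 of the 13 others. TAATCC was found for 3 of 37 genes (8.1%: Bbs1, Rpgrip1 and Unc119) and for 8.14% of all genes. A match describes letters in this window, not a bound site.

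The matching stretches are printed below 5′ to 3′ on the strand of the gene, for the BBSome subunit with the smallest adjusted p in rods (Bbs7), 2 IFT-B subunits with X-box matches (Ift22 and Ift57) and the BBSome subunit with both motifs (Bbs1). Capitals mark the motif: the X-box in the first 3 and TAATCC in Bbs1. The Bbs7 stretch is chr3:36613478-36613639 on the minus strand, Ift22 chr5:136907900-136908149 on the plus strand, Ift57 chr16:49699044-49699232 on the plus strand and Bbs1 chr19:4906629-4906877 on the minus strand, all from RefSeq in GRCm38.p6, the assembly that mm10 names.
Bbs7: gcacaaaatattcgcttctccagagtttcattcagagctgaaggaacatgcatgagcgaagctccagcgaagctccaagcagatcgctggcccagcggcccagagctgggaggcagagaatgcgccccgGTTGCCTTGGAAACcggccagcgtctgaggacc
Ift22: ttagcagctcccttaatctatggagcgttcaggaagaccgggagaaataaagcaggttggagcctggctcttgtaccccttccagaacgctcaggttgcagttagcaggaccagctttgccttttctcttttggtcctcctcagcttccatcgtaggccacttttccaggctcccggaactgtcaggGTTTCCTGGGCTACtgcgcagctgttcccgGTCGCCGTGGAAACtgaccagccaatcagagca
Ift57: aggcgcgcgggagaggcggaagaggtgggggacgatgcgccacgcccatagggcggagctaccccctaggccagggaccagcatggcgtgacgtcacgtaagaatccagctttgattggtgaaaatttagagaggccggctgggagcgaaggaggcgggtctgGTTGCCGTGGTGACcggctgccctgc
Bbs1: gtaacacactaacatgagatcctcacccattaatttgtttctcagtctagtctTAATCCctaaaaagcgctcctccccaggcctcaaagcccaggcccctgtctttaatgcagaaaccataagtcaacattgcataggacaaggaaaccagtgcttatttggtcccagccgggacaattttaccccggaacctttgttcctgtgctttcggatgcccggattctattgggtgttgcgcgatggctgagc
The Bbs7 match lies at -121 to -108 from the RefSeq start and reads as an X-box on both strands. Ift22 has matches at -63 to -50, on the opposite strand, and at -33 to -20. Ift57 has a match at -87 to -74, on the opposite strand, and another at -60 to -48, outside the printed stretch. In Bbs1, TAATCC lies at -197 to -192, and an X-box match at 1 to 14 follows the start.

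Arl6, the GTPase that brings the BBSome to membranes, was the gene that separated both photoreceptor types from every other class. It lies at chr16:59612949-59639391 on the minus strand. It ran from 168 to 267 CPM in rods (median 223) and from 191 to 312 CPM in cones (median 229). The highest library of any other class, a horizontal cell library, had 109 CPM. Its log2 difference was 1.99 in rods (SE 0.12, adjusted p = 4.25e-19) and 1.99 in cones (SE 0.12, adjusted p = 3.82e-18). Arl3, another small GTPase, which releases lipid-modified cargo, was 1.48 higher in rods and 0.96 higher in cones, at 431 to 796 CPM in rods (median 552). Rods lay above all 6 other classes without overlap for 4 of the 43 genes with a mean of at least 5 CPM, Bbs7, Arl3 and Arl6 among them, where the share over all such genes was 1.54%. For cones these were Rpgrip1, Arl6 and Lca5, 3 of 43, where the share was 1.26%.

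Among cargo carriers the members went in opposite directions. Unc119, which carries the acylated transducin alpha subunit, ran from 839 to 2599 CPM in rods (median 1443) and from 640 to 1711 CPM in cones (median 935), against 103 to 1148 CPM in single libraries of the other classes. It was 1.87 higher in rods (SE 0.11, adjusted p = 2.26e-19), and its ranges overlapped those of bipolar cells and Müller glia. Tulp3, which brings receptors into cilia with IFT-A, ran from 3.86 to 34.9 CPM in rods (median 6.13) and from 3.12 to 32.2 CPM in cones (median 16.1). Müller glia held the most, 83.9 to 232 CPM (median 125), above all rod and cone libraries. The log2 difference was -2.60 in rods (SE 0.25, adjusted p = 1.82e-12) and -1.66 in cones (SE 0.27, adjusted p = 1.10e-06). Against rod bipolar (-0.80) and cone bipolar cells (-0.64) alone, the cone call was lost. Tulp3 overlaps Gm44190 on the same strand, and reads of overlapping genes may not be told apart. The Tubby-family genes Tulp1 and Tub, outside the symbol rule, were 2.26 and 2.08 higher in rods.

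In the transition zone and RPGR complex, 4 of 5 genes were higher in rods and 4 of 5 in cones. Rpgrip1, which anchors RPGR at the connecting cilium, lies at chr14:52110704-52163546 on the plus strand. It ran from 740 to 2324 CPM in rods (median 1610) and from 1736 to 2447 CPM in cones (median 1877). Single libraries of the other classes had 54.1 to 864 CPM, so cones lay above all of them and rods overlapped cone bipolar cells. The log2 difference was 2.42 in rods (SE 0.16, adjusted p = 2.18e-17) and 2.78 in cones (SE 0.16, adjusted p = 3.14e-19). Cep290, a linker of microtubule and membrane in the connecting cilium, was 1.54 higher in rods and Cc2d2a, another transition zone protein, 0.95 higher. Rpgr itself, at chrX:10073621-10216920, was 0.35 higher in rods, a call that was lost without replicate 1 of either age (0.24 and 0.13) or 18-month replicate 2 (0.26), while Rpgrip1l (-0.08) was not called. Nphp4, which encodes a nephrocystin of the ciliary base, was not called in rods either (0.23). Rpgrip1 overlaps Supt16 on the opposite strand, and whether the counting used strand is not given in the sources used here.

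Lca5, which encodes the ciliary protein lebercilin, ran from 140 to 233 CPM in rods (median 173) and from 157 to 315 CPM in cones (median 244). The highest library of another class had 145 CPM (cone bipolar), so that cones were above all other classes and the lowest rod library was not. Its log2 difference was 1.59 in rods (SE 0.12, adjusted p = 1.65e-15) and 1.91 in cones (SE 0.13, adjusted p = 2.38e-17). Bbs12, a chaperonin-like protein needed to assemble the BBSome, ran from 34.9 to 59.4 CPM in rods (median 51.4) and from 32.2 to 78.7 CPM in cones (median 52.6), and the highest libraries of bipolar cells and Müller glia, at 44.6 to 48.0 CPM, reached into both ranges. It was 1.73 higher in rods (SE 0.15, adjusted p = 1.56e-13) and 1.76 higher in cones (SE 0.18, adjusted p = 1.54e-11). Bbs12 overlaps Cetn4 on the opposite strand. Alms1, a basal body gene, was not called in rods (-0.06).

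The genes of the IFT trains differed less between classes than those of the BBSome. In rods, 2 of 3 IFT-A and 8 of 11 IFT-B genes were higher, with median log2 differences of 0.76 and 0.53. Ift122 (0.96) and Ift43 (0.76) were the IFT-A genes called. Of IFT-B, Ift22 (1.18), Ift74 (1.04) and Ift27 (1.02) had the largest differences, followed by Ift57 (0.88), Ift81 (0.53), Ift20 (0.53), Ift80 (0.47) and Ift52 (0.31). Ift140 (0.26), Ift88 (0.16), Ift46 (0.15) and Ift172 (0.14) were not called. In cones, 2 of 3 IFT-A and 5 of 11 IFT-B genes were higher than the mean of the other classes. Among them, only Ift122 was called against each of the 6 classes alone. Against horizontal cells alone, Ift140 (0.27), Ift22 (0.96), Ift74 (0.31) and Ift172 (0.13) were not called in cones. That the IFT differences were smaller than those of the BBSome is a description and was not tested. Ift52 lost its call when any 1 library was left out (0.20 to 0.33), and Ift20 without 3-month replicate 2 (0.23). Set against 1 class alone, 4 of these rod calls were lost with a change of sign: Ift20 against rod bipolar (-0.15), Ift52 against retinal ganglion (-0.02), and Ift57 (-0.04) and Ift81 (-0.03) against horizontal cells. In cones Ift57 (-0.44) and Ift81 (-0.13) were likewise not called against horizontal cells, nor in rods was Rpgr against rod bipolar cells (-0.03).

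The ciliary motors did not go together. Dync2li1, a light intermediate chain of dynein-2, was 1.04 higher in rods, whereas Dync2h1, the heavy chain, was not called (-0.00), with 131 to 177 CPM in rods (median 142). Against rod bipolar cells alone Dync2h1 was called lower (-0.55, adjusted p = 0.00144), and against cone bipolar cells alone it was at 0.34 and not called (adjusted p = 0.0628). The dynein-2 intermediate chains Wdr34 and Wdr60 and the light chain Tctex1d2, outside the symbol rule, were 1.30, 1.08 and 1.23 higher in rods. Kif3b, a subunit of the heterotrimeric kinesin-2, was 0.86 higher in rods. Its usual partner Kif3a ran from 39.8 to 65.0 CPM in rods (median 49.8) and from 36.7 to 48.3 CPM in cones (median 41.1), against medians of 91.4 CPM in horizontal, 81.3 CPM in retinal ganglion and 73.3 CPM in amacrine cells but 34.9 CPM in rod bipolar and 40.6 CPM in cone bipolar cells. Its log2 difference was -0.28 in rods (SE 0.13, adjusted p = 0.0494) and -0.70 in cones (SE 0.15, adjusted p = 1.27e-04). In rods the sign depended on the class set against it, at 0.54 against rod bipolar and 0.43 against cone bipolar cells alone, and the call was lost without replicate 1 of either age (-0.23 and -0.19) or 18-month replicate 2 (-0.27). Kif3c, a kinesin-2 motor of neurons, ran from 15.8 to 50.5 CPM in rods (median 23.6) and from 6.25 to 48.5 CPM in cones (median 28.5), and retinal ganglion cells held 58.7 to 122 CPM (median 69.2). It was lower by -1.16 in rods (SE 0.15, adjusted p = 2.99e-09) and by -1.10 in cones (SE 0.17, adjusted p = 4.33e-07). The cone call of Kif3c was lost against rod bipolar (-0.54) and cone bipolar cells (-0.52) alone.

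Other genes of the pathway, from lists drawn up by function, were counted in the same fit. Over all genes, 38.6% were called higher in rods there and 34.2% lower. Of 16 further IFT, BBSome and motor subunits tested, 11 were higher in rods and 1, Ttc21b (-0.38), was lower. Of 21 transition zone, basal body and axoneme genes, 16 were higher, led by the kinase gene Mak (2.58), the axoneme genes Rp1 (2.53) and Rp1l1 (2.50) and Fam161a (2.38), and 3 were lower, Iqcb1 (-0.79), Sdccag8 (-0.55) and Spata7 (-0.32). Of 11 cargo release and sorting genes, 7 were higher and none lower, among them Pde6d (1.52), the carrier of prenylated phosphodiesterase, and Rab28 (1.13). Without the Malat1-poor rods 4 of the 11 were higher, a share near the 33.4% of all genes. Of 16 axonal and cytoplasmic motors, set beside them for contrast, 8 were higher and 6 lower, with Dync1i1 at -2.28, Kif5c at -1.52 and Kif21b at 1.51. In cones the counts were 7 higher and 2 lower of 16, 14 and 2 of 21, 6 and 0 of 11, and 3 and 9 of 16. Over all genes, 26.5% were called higher in cones and 27.1% lower.

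Between rods and cones, 19.5% of these genes were called, beside 29.2% of all genes. In rods against cones, 7 of 41 were higher and 1 was lower, where 17.6% of all genes were called higher and 11.6% lower. The share called higher was thus near that of all genes. Bbs7 was 0.92 higher in rods (SE 0.15, adjusted p = 3.23e-06), Unc119 0.78 (SE 0.16, adjusted p = 2.74e-04) and Arl3 0.52 (SE 0.14, adjusted p = 0.00332), and each was higher in rods in 6 of 6 libraries. Cones held 350 to 574 CPM of Arl3 (median 419) against 431 to 796 CPM in rods, so the ranges overlapped between the types. Bbs9 was 0.72 higher (SE 0.26, adjusted p = 0.0314) in 4 of 6 libraries, and leaving out any library but 18-month replicate 3 ended its call (0.55 to 0.81). Ift43 (0.47) and Bbs2 (0.40) were also higher, but kept their calls in only 6 and 4 of 14 alternatives. Of the 8 calls, 3 were made in all 14 alternatives, among them Bbs7 and Unc119. Leaving out either replicate 2 or replicate 3 of the 3-month libraries gave 3 calls (7.32% of the genes tested, beside 15.5% and 19.7% of all genes), with Arl3 at 0.34 and 0.43 and no longer called. Without the Malat1-poor rods 5 were called (12.2%, beside 16.7% of all genes), among them Bbs2, Bbs7, Bbs9 and Unc119. Arl3 (0.27) and Ift43 (0.10) were not called there.

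The Malat1-poor rods held the transport genes in other proportions than the remaining rods. They could be compared within the 3 libraries with the most of them, each a single pair of sums with no replicate, so the ratios below are descriptions. Of the transport genes with over 3 UMIs in both sums, the Malat1-poor rods were lower for 26 of 40 in 3-month replicate 2, 25 of 41 in 3-month replicate 3 and 26 of 36 in 18-month replicate 2. The share of all genes that were lower was not counted. With at least 20 UMIs in both sums together, the transport genes had median ratios of 0.913, 0.681 and 0.863. All genes had 0.877, 0.911 and 1.115. Rpgr stood at a CPM ratio of 0.161, 0.180 and 0.299 in these libraries, Bbs9 at 0.171, 0.141 and 0.324, Rpgrip1 at 0.208, 0.209 and 0.358 and Ift140 at 0.134, 0.229 and 0.531. Unc119 stood at 1.62, 1.51 and 1.22, Kif3a at 1.79, 1.30 and 1.42 and Ift27 at 1.86, 1.62 and 1.0.

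The ratio was lower for longer genes. Transport genes up to 20 kb, such as Unc119, Ift27 and Ift20, had a median ratio of 1.144, 1.08 and 1.221 in the 3 libraries, and those over 50 kb a median of 0.525, 0.448 and 0.595. Over all genes the medians were 1.165, 1.12 and 1.375 up to 20 kb and 0.592, 0.688 and 0.849 over 50 kb. Some genes went the other way, such as Bbs12 (8.9 kb) at 0.372, 0.450 and 0.401. Among long genes, Ift43 (79.92 kb) stood at 1.62, 1.60 and 1.23 and Ift57 (65.89 kb) at 1.30, 1.08 and 1.07. Across genes, Spearman's correlation between the ratio and the gene length was -0.48, -0.53 and -0.50 (n = 40, 40 and 36). Over all genes with enough UMIs, it was -0.46, -0.33 and -0.35 (n = 10098, 9589 and 8100). Genes of 1 library are not independent replicates, and all points of a library share its 2 sums.

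**Figure D3:**
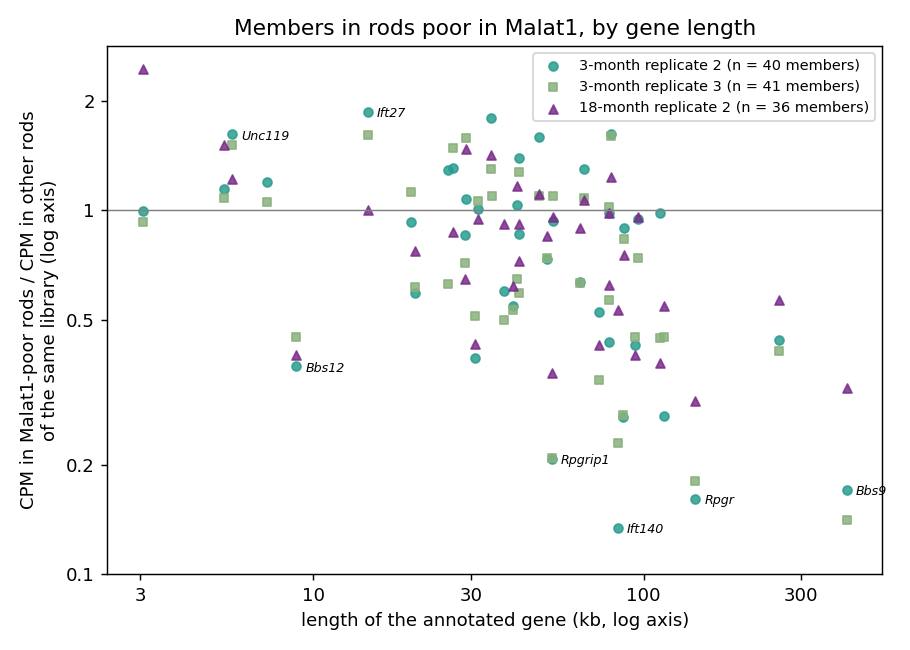
Ratio of the CPM in Malat1-poor rods to that in the other rods of the same library (log axis) against gene length in kb (log axis), 1 point per gene and library, for 3 libraries. Most genes over 50 kb lie below 1, with medians of 0.525, 0.448 and 0.595, and Unc119, Ift27 and Kif3a lie at or above 1.

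Removing these rods left the photoreceptor result in place. Without them 31 of 41 genes were higher in rods than in the other classes and 4 lower, beside 33.4% of all genes called higher.

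With age as the only term, none of 41 transport genes was called in rods, where 0.0% of 11529 genes were called by edgeR. At an unadjusted p under 0.05 there were 762 genes, 3 of them transport genes, and DESeq2 called 7 genes and none of these. The transport genes had a median log2 difference of -0.16, with 15 higher and 26 lower at 18 months, against a median of -0.03 for all genes. Without TMM factors both medians moved up, to 0.06 for the transport genes and 0.21 for all genes, and the split was 23 higher and 18 lower.

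The Cell Ranger release that made the counts was 7.1.0 for replicate 1 of both ages and 7.2.0 for the rest. With release as a term, 10.6% of genes were called in rods (3.7% higher, 6.9% lower at 18 months), and 0 of 41 transport genes were higher and 3 lower: Dync2li1, Ift27 and Unc119. With the replicate number as a block, 8.86% of genes were called (2.84% higher, 6.01% lower) and the same 3 transport genes. Replicate 1 of both ages is the release 7.1.0 pair, so the block contains the release term and is not an independent check of it.

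Dync2li1, at chr17:84626496-84655588 on the plus strand, stood at 28.0, 31.2 and 31.9 CPM in rods at 3 months and at 11.4, 16.8 and 15.5 CPM at 18 months. All 3 young libraries were above all 3 old ones, although 18-month replicate 3 counted only 4 UMIs of this gene. The log2 difference was -1.31 with age alone (SE 0.33, adjusted p = 0.611), -1.25 with the release term (SE 0.26, adjusted p = 0.0208) and -1.30 with the replicate block (SE 0.30, adjusted p = 0.0243). Without the Malat1-poor rods the levels were 28.1, 29.7 and 24.9 CPM against 11.4, 16.5 and 15.6 CPM, so the ages still did not overlap, and the difference was -0.94 with the release term (SE 0.29, adjusted p = 0.297).

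Ift27, an IFT-B GTPase through which the BBSome leaves cilia, at chr15:78159463-78174107 on the minus strand, stood at 28.0, 46.0 and 45.4 CPM in rods at 3 months and at 10.7, 29.1 and 15.5 CPM at 18 months. The lowest young library and the highest old one overlapped, and 18-month replicate 3 again counted 4 UMIs. Its log2 difference was -1.30 with age alone (SE 0.46, adjusted p = 0.611), -1.15 with the release term (SE 0.26, adjusted p = 0.0235) and -1.27 with the block (SE 0.29, adjusted p = 0.0235). Without the Malat1-poor rods it was -0.60 with the release term (SE 0.31, adjusted p = 0.50).

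Unc119, at chr11:78343482-78349164 on the plus strand, stood at 1166, 2587 and 2599 CPM in rods at 3 months and at 839, 1597 and 1289 CPM at 18 months. Replicate 1 was lowest at both ages, and its 3-month level lay within the 18-month range. The log2 difference was -1.05 with age alone (SE 0.52, adjusted p = 0.611), -0.95 with the release term (SE 0.27, adjusted p = 0.0387) and -0.96 with the block (SE 0.27, adjusted p = 0.0419). Without the Malat1-poor rods, which held more Unc119 than the others and came mostly from 3-month libraries, the levels were 1082, 1801 and 2090 CPM against 833, 1585 and 1292 CPM, and the release-term difference was -0.48 (SE 0.17, adjusted p = 0.348).

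**Figure D4:**
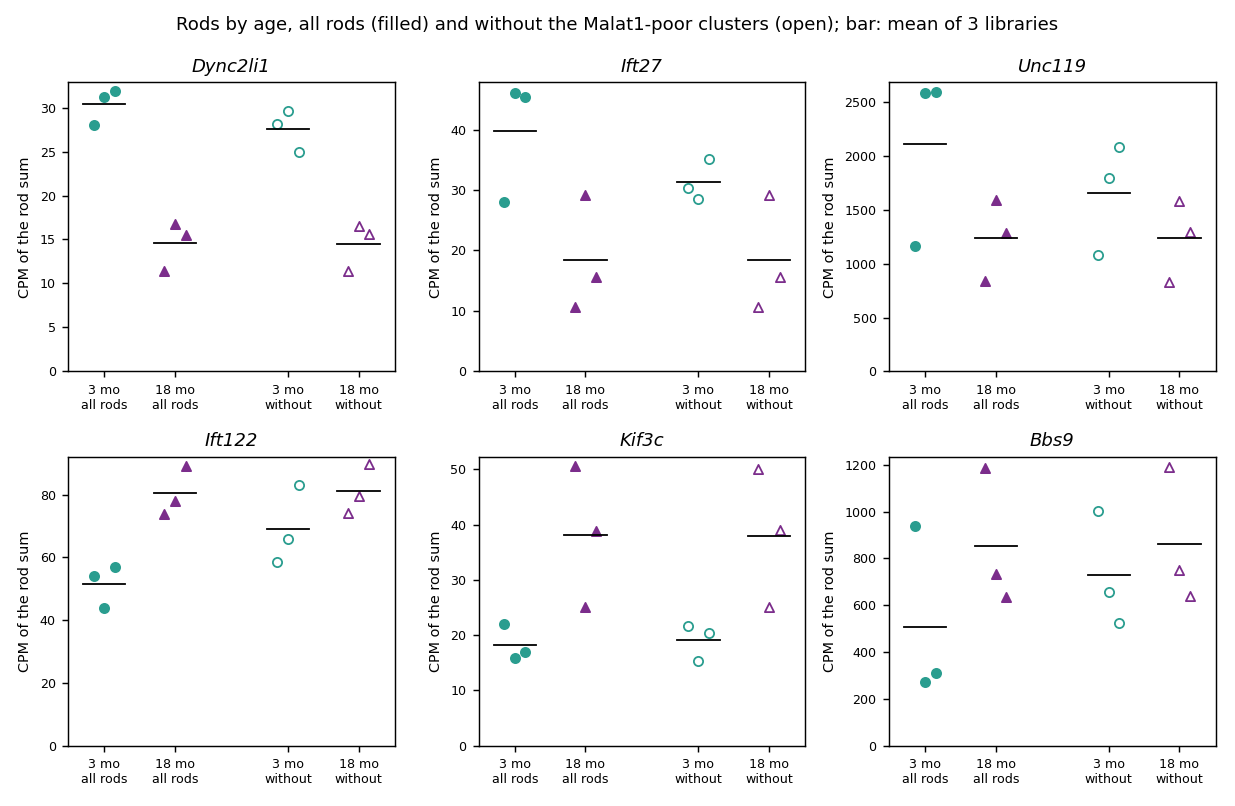
CPM of the rod sum for 6 genes in each of 3 libraries per age, with all rods (filled) and without the Malat1-poor clusters (open); bars are means of 3 libraries. Dync2li1 and Kif3c keep the ages apart in both, while the 3-month levels of Unc119 and Bbs9 move toward the 18-month levels when the Malat1-poor rods are removed.

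The age calls in rods depended on which libraries entered the fit. With the release term, leaving out 1 library in turn gave 0 to 9 transport genes. Omitting a 3-month library gave 8 genes for replicate 1 (19.5%, beside 17.8% of all genes), 0 for replicate 2 and 0 for replicate 3 (0.017% and 0.0769% of all genes). Omitting an 18-month library gave 9 (21.4%, beside 19.0% of all genes), 0 (0.0172%) and 2 (4.88%, beside 4.19%), so the transport genes' share moved with that of all genes. Without the Malat1-poor rods the release-term fit called 0.147% of genes and no transport gene, with 3 of 40 at an unadjusted p under 0.05. When the fit was limited to release 7.2.0 (4 libraries), 17.4% of genes were called (9.74% higher, 7.62% lower), and so were 7 transport genes. Ift43, Ift27, Dync2li1 and Unc119 were lower there, at -0.96, -0.98, -1.13 and -1.08, and Bbs9 (1.01), Rpgr (0.98) and Alms1 (1.08) were higher. The last 3 exceed 100 kb, as do Dync2h1 (255.9 kb) and Ift80 (112.1 kb), which were not called there. Bbs9 and Rpgr were among the genes lowest in Malat1-poor rods. Whether gene length or these rods bear on the calls was not tested. Over 24 settings the log2 difference ran from -1.57 to -0.80 for Dync2li1, from -2.05 to -0.60 for Ift27 and from -1.34 to -0.48 for Unc119.

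Kif3c, the neuronal kinesin-2 motor that was low in rods, stood at 22, 15.8 and 16.9 CPM in rods at 3 months and at 50.5, 25.2 and 38.8 CPM at 18 months. The ages did not overlap, with or without the Malat1-poor rods. The log2 difference was 0.84 with age alone (SE 0.35, adjusted p = 0.611) and 0.64 with the release term (SE 0.27, adjusted p = 0.128), and no setting called it. Ages did not overlap in rods for 6 of 41 transport genes (Dync2li1, Ift122, Ift172, Ift88 and Kif3c among them, with Dync2li1 alone of the 6 lower at 18 months), which is 14.6% beside 12.1% of all genes. Without the Malat1-poor rods there were 4 of 42, with Dync2li1, Ift88 and Kif3c among them, which is 9.52% beside 7.48% of all genes.

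**Figure D5:**
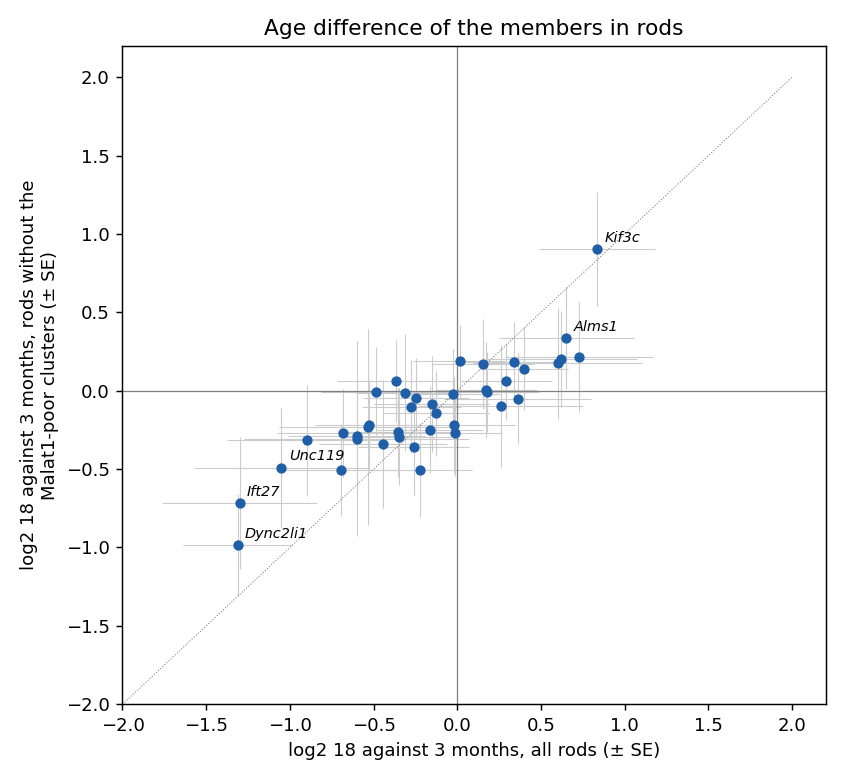
Log2 difference of 18 against 3 months (± SE, edgeR, age alone) with all rods on the horizontal axis and without the Malat1-poor clusters on the vertical axis, 1 point per gene tested in both; the dotted line marks equal values. Dync2li1, Ift27 and Unc119 lie at -1.31, -1.30 and -1.05 on the horizontal axis and at -0.99, -0.72 and -0.49 on the vertical axis.

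In cones, edgeR called 0.0% of 8494 genes for age and none of 39 transport genes. An unadjusted p under 0.05 was found for 248 genes and no transport gene, and DESeq2 called none. The genes with the smallest p were Unc119, Bbs9, Ift57 and Ift22. Unc119 stood at 818, 1262 and 1711 CPM at 3 months and at 640, 1051 and 641 CPM at 18 months, with overlap, at a log2 difference of -0.77 (SE 0.38, adjusted p = 0.977). Bbs9 stood at 391, 344 and 290 CPM against 473, 439 and 669 CPM, and the ages did not overlap (0.56, SE 0.29, adjusted p = 0.977). Of 42 genes, Ift81 and Bbs9 did not overlap between ages, beside 8.57% of all genes. Cluster 36 supplied 307 of the 325 cones of 18-month replicate 3, and without it no transport gene was called either.

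No transport gene was called for age in the 6 other classes, with age alone, with the release term or with the replicate block. With age alone, 0.0% of all genes were called by edgeR in each of them, and an unadjusted p under 0.05 was found for 3 of 27 transport genes in cone bipolar (2.07% of all genes), 3 of 43 in retinal ganglion (1.88%), 4 of 29 in horizontal (5.17%) and 2 of 41 in amacrine cells (2.39%), 1 of 38 in Müller glia (3.24%) and 0 of 26 in rod bipolar cells (1.33%). The age difference in rods was also set against the mean age difference of the 6 classes as an interaction. There 1.11% of 12229 genes were called (0.482% higher, 0.63% lower) and none of 42 transport genes, with 6 at an unadjusted p under 0.05 (Ift122, Ift140, Ift43, Ift20, Ift27 and Rpgr; 14.3%, beside 20.6% of all genes), and DESeq2 called 689 genes and none of the transport genes. Without 3-month replicate 1 the interaction called 15.2% of all genes and 4 of the transport genes (9.52%), Ift43 (-0.93), Ift20 (-0.96) and Kif3a (-0.75) lower and Rpgr (1.13) higher. Ift27 had the most negative value of the 6 in the fit on all libraries, -1.04 (SE 0.39, adjusted p = 0.124). Of the pathway genes outside the symbol rule, none was called for age in rods with age alone, and the release term called B9d1 (-1.38), Tctex1d2 (-0.86) and Invs (1.02).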

How the data were processed

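The data are raw UMI counts per gene and barcode as deposited by the authors. Per the file headers they were made with Cell Ranger 7.1.0 (replicate 1 of both ages) and 7.2.0 (the other libraries). The submitters' processing notes name mm10 and Seurat. The chemistry was 10x 3′ v3.1 on nuclear RNA, per the labels' protocols. The authors' filters and cell types were not used here, and some genes are not reported here by name.

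Of 62893 barcodes, 50241 were kept, with at least 300 genes, at most 5% mitochondrial UMIs and, in each library, the highest Scrublet scores removed at 0.8% per 1000 nuclei. Nuclei were clustered in scanpy 1.11.5 (leidenalg 0.10.2, Leiden resolution 2, 2000 variable genes, 30 components, 15 neighbours) without the 44 genes, the further pathway genes or mitochondrial genes. Of 49 clusters, 36 were named from marker lists, needing at least 3 markers and 25% of a list above a log2 fold of 1. These limits were set after looking at the clusters. Malat1-poor rods are the rod clusters with under 25000 CPM of Malat1, chosen after seeing the data, as were the fits without cone cluster 36 and without TMM. The low-count filter was filterByExpr, and classes needed 20 nuclei in every library.

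Classes were compared with library as a block and ages with age alone, by edgeR's quasi-likelihood test with TMM and Benjamini-Hochberg adjustment over all genes tested. DESeq2 1.42.0 was an alternative. The other alternatives were no low-count filter, another resolution, a gate on marker scores, at most 2% mitochondrial UMIs, each library left out, each class alone, the release term, release 7.2.0 alone and the replicate block. The fit was tested on simulated data with the same dispersion for all genes and no library or release effects. That test cannot show how the age calls depend on such effects. In rods, deviations of libraries with the same replicate number correlated at 0.63, 0.58 and 0.19 across genes, all over 0.1, and the numbers were taken as pairs from the data, since no label says what they share. The third pair was exceeded by 3-month replicate 3 with 18-month replicate 2 (0.47) and 3-month replicate 2 with 18-month replicate 3 (0.24). In cones the third pair was at -0.016. These correlations do not settle whether the numbers pair the libraries.

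Values in every library were given for the 8 genes per direction with the largest difference in rods and the 5 per direction in cones and between rods and cones, among those called with at least 20 CPM and 3 UMIs on the higher side, for genes called for age with age alone or the release term, and otherwise for the 4 with the smallest p. The genes and lists were chosen with earlier results of these data known. Positions are from GENCODE M21 on mm10 and promoters from RefSeq. Versions were edgeR 4.0.16, R 4.3.3, limma 3.58.1, matplotlib 3.10.9, pandas 2.3.3, scipy 1.17.1, numpy 2.4.6 and Python 3.11.15.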

Additional observations from a re-analysis of the deposited data

How the results depend on the processing

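In rods against the other classes, 27 of the 33 called genes were called in the same direction in the 13 alternatives that keep the 6-class mean, and in cones 26 of 30. Against every one of the 6 classes alone, 24 of the rod and 13 of the cone calls were made, and in all 19 alternatives 23 and 13. In rods the exceptions among the 13 were Ift20, Ift52, Ift80, Kif3a and Rpgr, and Dync2li1, which fell below the low-count filter at 2% mitochondrial UMIs and was called in the rest; in cones they were Ift140, Ift57, Ift172 and, for the same reason, Dync2li1. Against 1 class alone, 7 rod and 4 cone genes changed sign. Kif3a turned to 0.54 against rod bipolar and 0.43 against cone bipolar cells alone in rods, and to 0.12 and 0.01 in cones. Without TMM factors the cone calls over all genes were 3858 higher and 2540 lower, against 2949 and 3024, with 30 and 4 transport genes, and the all-gene median was 0.15 in place of 0.02. For rods against cones they were 1333 and 1475 against 1959 and 1293, with 4 and 2 transport genes.

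In rods against cones, leaving out 1 library gave 3 to 10 transport genes, with 3 without 3-month replicate 2 and 3 without 3-month replicate 3, and 5 without Malat1-poor rods, in place of 8. For age in rods, 0 transport genes became 3 with the replicate block, 3 with the release term and 7 in release 7.2.0 alone. With the release term and 1 library left out they were 0 to 9. Over all genes 0 became 1021, 1221 and 2163, and 15 with the release term and without Malat1-poor rods. In cones the block and the release term gave 0 transport genes, and 210 genes were called without the low-count filter. The replicate block changed no other call of a transport gene; over all genes it gave 82 calls in Müller glia, 4 in rod bipolar, 3 in cone bipolar and 1 in horizontal cells. The interaction gave 5 transport genes under the marker gate, 4 without 3-month replicate 1 and 0 to 4 over the libraries left out, with 0 to 1898 genes in place of 136, 689 in DESeq2, 1550 under the gate, 247 without TMM and 0 without Malat1-poor rods. The cause of these shifts was not tested. The smallest rod sum was that of 18-month replicate 3, with 257577 UMIs from 216 nuclei.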
